A study of Mus musculus with 8 samples.

Results

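The hepatic acute-phase genes described here are 10 genes chosen by symbol: the serum amyloids *Saa1*, *Saa2* and *Saa3*, the orosomucoids *Orm1*, *Orm2* and *Orm3*, lipocalin 2 (*Lcn2*), haptoglobin (*Hp*) and the pentraxins *Crp* and *Apcs*. All 10 were found among the 27179 genes of the table, and all 10 lay among the 18937 genes with reads. The study asked how the substitution V227A, alanine in place of valine, in PPARɑ, the fasting-activated nuclear receptor of fatty acid catabolism, alters liver transcripts. RNA was sequenced from livers of adult male C57BL/6NHsd mice aged 12 to 14 weeks and fasted for 6 h, 4 of them wild-type and 4 homozygous for V227A. The substitution came from base editing of zygotes, from 1 heterozygous founder backcrossed to C57BL/6NHsd and bred on as heterozygotes, and it is carried in the germline, so every tissue holds it. The diet of these mice was not given in the sources used here.

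The values used are the authors' average log2 CPM (counts per 1000000 counted reads) of each gene, pooled over all 8 libraries. Such an average covers both genotypes, so it gives no level per genotype, no difference between genotypes and no spread between mice. The average behaved as one with a prior count of 2 added to each gene, which placed the mean effective library size at 27474001 counted reads. The size of each library is unknown. Intervals given below are exact 95% Poisson intervals on the reads that the average implies over all libraries, and they cover counting error only. Levels of different genes are compared as CPM per kb, which divides by the joined length of all annotated exons unless the principal transcript, the annotated main isoform of a gene, is named. In bulk liver, fewer cells of a type and less RNA per cell cannot be told apart.

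Acute-phase proteins are plasma proteins whose output from hepatocytes changes during infection, injury and inflammation. Interleukin 6 acts through its receptor and STAT3, and interleukin 1 and tumour necrosis factor act through NF-kB, with C/EBP factors at many of the same promoters. Positive acute-phase proteins rise in this response and negative ones, such as albumin and transthyretin, fall.

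Markers of the tissue were read first. All 8 hepatocyte markers had reads, with a median of 3025 CPM per kb against 1.14 CPM per kb over the 17956 genes with reads and a length. *Alb*, which encodes albumin, was the gene with the highest level in the table at 29709 CPM per kb of all exons, and *Apob*, the lowest of the hepatocyte markers, stood at 208 CPM per kb. The label of liver therefore matched its defining markers.

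The 10 acute-phase genes spanned from 2.37 CPM per kb for *Saa3* to 2378 CPM per kb for *Hp*. Their median was 38.2 CPM per kb with all exons and 76.9 CPM per kb with the principal transcript. The median over the 17956 genes with reads and a length was 1.14 CPM per kb of all exons. Over the 16122 genes with a principal transcript it was 2.02 CPM per kb of that transcript. All 10 exceeded 1 CPM, which 11711 of the 18937 genes with reads did. Together they took 0.515% of all CPM, a share of reads not corrected for length, of which *Hp* alone took 0.381% of all CPM. In descending order the genes were *Hp*, *Orm1*, *Saa1*, *Crp*, *Apcs*, *Saa2*, *Orm2*, *Orm3*, *Lcn2* and *Saa3* by CPM per kb of all exons. With the principal transcript the order became *Hp*, *Orm1*, *Saa1*, *Saa2*, *Crp*, *Apcs*, *Orm2*, *Saa3*, *Lcn2* and *Orm3*, so 5 genes changed place. With the longest transcript 4 genes changed place: *Crp*, at 97.6 CPM per kb, stood above *Saa1* at 95.1, and *Lcn2*, at 6.33, above *Orm3* at 6.03. Neighbours in the order could not be set against a spread between mice.

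**Figure D1:**
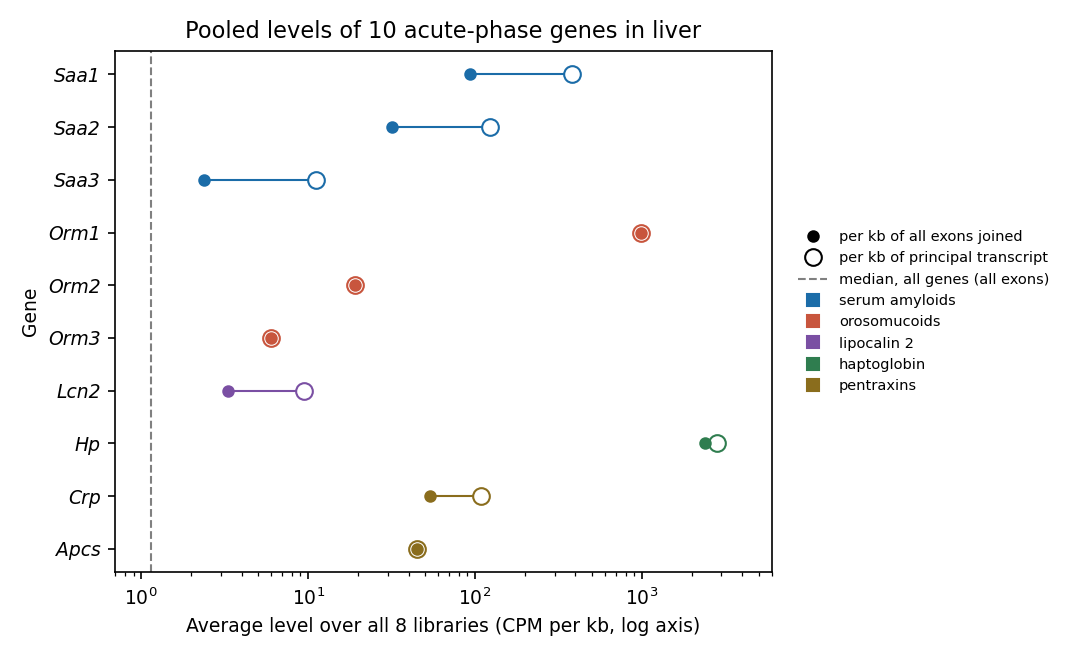
Average level over all 8 libraries of the 10 acute-phase genes on a log axis in CPM per kb, with filled points for the length of all exons joined, open points for the principal transcript, colours for families and a dashed line at the median of all genes (1.14 CPM per kb of all exons). *Hp* and *Orm1* stand highest on both lengths, and the points of *Saa1*, *Saa2*, *Saa3*, *Lcn2* and *Crp* move by more than 1.5 times between lengths; no error bars can be drawn from a pooled average.

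*Saa1* and *Saa2* encode the circulating serum amyloid A proteins, which hepatocytes release into plasma where they ride on high-density lipoprotein. *Saa1* had an average log2 CPM of 7.86, or 233 CPM (interval 231 to 235), which corresponds to about 6388 reads per library. *Saa2* had an average log2 CPM of 6.32, or 80.0 CPM (interval 78.8 to 81.2), with about 2195 reads per library. *Saa1* was thus 2.96 times *Saa2* in CPM per kb of all exons, and 3.11 times with the principal transcripts. *Saa1* reached 93.9 CPM per kb of all exons and 382 CPM per kb of its principal transcript. *Saa2* reached 31.8 and 123 CPM per kb on the same lengths. The gap between the lengths arises because the annotation joins 2478 exon bases for *Saa1* and 2518 for *Saa2*, retained introns included, while the principal transcripts have 609 and 652 bases.

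*Saa3* encodes an isoform better known from macrophages and adipocytes than from hepatocytes. Its average log2 CPM was 2.63, or 6.18 CPM (interval 5.85 to 6.52), with about 168 reads per library. In CPM per kb *Saa1* was 39.6 times *Saa3*, or 34.3 times with the principal transcripts. *Saa1* accounted for 73.3% of the summed CPM per kb of the serum amyloids *Saa1*, *Saa2* and *Saa3*, and for 74.1% with the principal transcripts.

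*Saa4*, a constitutive serum amyloid of the same cluster that was read as a pathway gene, had 303 CPM per kb on both lengths. It was 3.22 times *Saa1* in CPM per kb of all exons but 0.792 times *Saa1* in CPM per kb of the principal transcripts, so which of this pair ranked higher depended on the length chosen.

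The serum amyloid genes form a cluster on chromosome 7 of GRCm38. *Saa1* (ENSMUSG00000074115) lies on the minus strand at chr7:46740497-46742980 and *Saa2* (ENSMUSG00000057465) on the plus strand at chr7:46751790-46754313, so they are transcribed away from each other across 8809 bases. *Saa3* (ENSMUSG00000040026) lies on the minus strand at chr7:46711998-46715700, with *Saa4* and the pseudogene *Saa-ps* between it and *Saa1*.

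**Figure D2:**
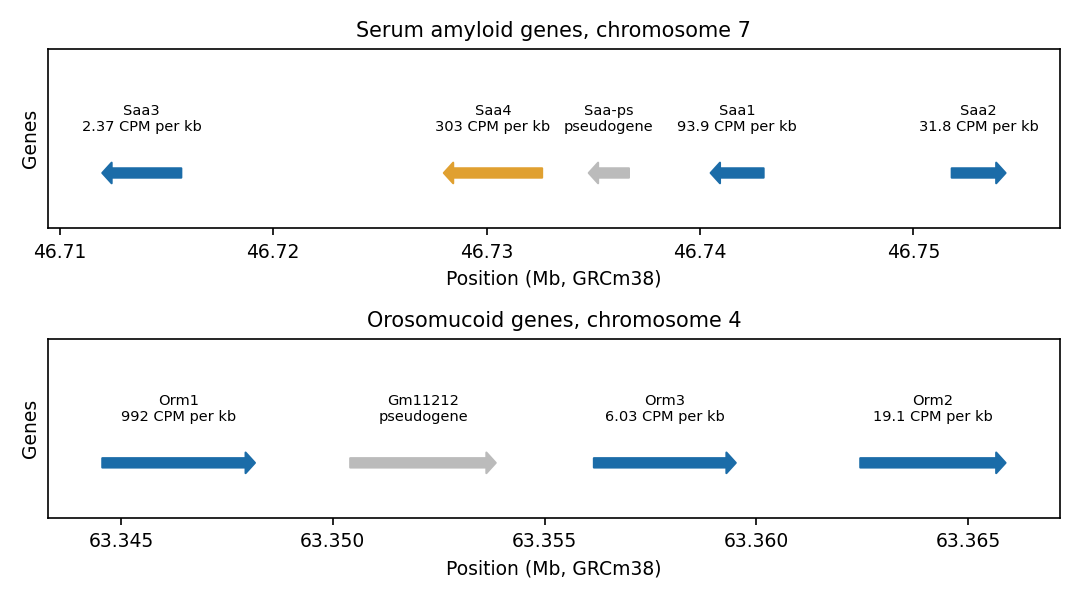
Maps to scale of the serum amyloid genes on chromosome 7 (top) and the orosomucoid genes on chromosome 4 (bottom), with position in Mb of GRCm38 on the horizontal axis, arrows pointing in the direction of transcription and the average CPM per kb of all exons under each symbol. Blue arrows are the acute-phase genes described, the orange arrow is *Saa4* and grey arrows are pseudogenes; *Orm1*, with 992 CPM per kb, is followed by *Orm3* with 6.03 and *Orm2* with 19.1 CPM per kb on the same strand.

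The coding sequences of *Saa1* and *Saa2* were 95.1% identical over 366 bases, with 18 mismatches. *Saa3* was 75.1% identical to *Saa1* and 73.5% identical to *Saa2*. None of the 100-base windows of the *Saa1*, *Saa2* and *Saa3* principal transcripts occurred in a transcript of another gene. With 50-base windows, 14.8% of *Saa1*, 9.12% of *Saa2* and 1.78% of *Saa3* windows did, so short or trimmed reads there could be split or dropped by the counting. If reads fell evenly, the 50-base windows of *Saa1* shared with *Saa2* would hold 30.7 CPM, which is 0.384 times the level of *Saa2*, and those shared with *Saa3* 3.74 CPM, or 0.605 times the level of *Saa3*. The levels of *Saa2* and *Saa3*, and their ratios to *Saa1* and to each other, are therefore uncertain by more than the shares of windows. The longest coding stretch that *Saa1* and *Saa2* share has 73 bases. It is printed because a read wholly inside it does not by itself name either gene, although its mate may. It covers coding bases 286 to 358 of each gene, at chr7:46740715-46740787 on the minus strand for *Saa1* and chr7:46754026-46754098 on the plus strand for *Saa2* (GRCm38, GENCODE vM21 transcripts).
Saa1 and Saa2 shared coding run: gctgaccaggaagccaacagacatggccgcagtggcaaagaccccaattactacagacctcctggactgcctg

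The orosomucoids, or alpha-1-acid glycoproteins, are plasma lipocalins that bind lipophilic ligands and drugs. *Orm1* had an average log2 CPM of 9.59, or 769 CPM (interval 765 to 772), with about 21114 reads per library. *Orm2* had an average log2 CPM of 3.89, or 14.8 CPM (interval 14.3 to 15.3), with about 405 reads per library. *Orm3* had an average log2 CPM of 2.22, or 4.66 CPM (interval 4.38 to 4.96), with about 126 reads per library. In CPM per kb *Orm1* stood at 992, which was 51.9 times *Orm2* at 19.1 and 164.5 times *Orm3* at 6.03. *Orm2* was 3.17 times *Orm3* on this scale. *Orm1* made up 97.5% of the summed CPM per kb of the orosomucoids. These ratios did not depend on the exon model, because all exons joined and the principal transcript have the same length in each orosomucoid, 775 bases in *Orm1* and *Orm2* and 773 in *Orm3*.

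The orosomucoid genes lie in the same direction on the plus strand of chromosome 4. *Orm1* (ENSMUSG00000039196) is at chr4:63344560-63348163, *Orm3* (ENSMUSG00000028359) at chr4:63356162-63359511 and *Orm2* (ENSMUSG00000061540) at chr4:63362449-63365878. The pseudogene *Gm11212* sits between *Orm1* and *Orm3*. The *Orm1* and *Orm2* coding sequences were 89.9% identical, *Orm2* and *Orm3* 87.9%, and *Orm1* and *Orm3* 86.0%.

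Of the 100-base windows of the *Orm1* and *Orm2* transcripts, 6.95% of each occurred in the other gene. These were the only acute-phase genes described with such windows, the other 8 having none. At 50 bases 20.4% of *Orm1* and 22.7% of *Orm2* windows were shared, and 3.59% of *Orm3* windows. At 150 bases no window of any of the 10 genes was shared. Reads in shared stretches could be split or dropped by the counting. If reads fell evenly, the shared windows of *Orm1* would hold 53.4 CPM at 100 bases, which is 3.61 times the whole level of *Orm2*. At 50 bases the windows of *Orm1* shared with *Orm2* would hold 157 CPM, and those shared with *Orm3* 16.9 CPM, or 3.63 times the level of *Orm3*. If such reads were counted to the other gene, *Orm1* could supply all of the counts of *Orm2* or, with 50-base windows only, of *Orm3*. Dropped reads would supply none, and in paired reads a mate outside the stretch could place a read. How these reads were counted is not known, so the levels of both, with the ratios of 51.9, 164.5 and 3.17, are uncertain. The longest shared coding run has 104 bases and is printed because it cannot tell the genes apart. It covers coding bases 442 to 545 and crosses introns, at chr4:63346284-63347971 in *Orm1* and chr4:63364164-63365686 in *Orm2*, both on the plus strand of GRCm38.
Orm1 and Orm2 shared coding run: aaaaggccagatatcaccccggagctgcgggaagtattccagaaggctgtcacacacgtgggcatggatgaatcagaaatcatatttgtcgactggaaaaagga

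*Lcn2* encodes a lipocalin that binds bacterial siderophores and so withholds iron, and it is a granule protein of neutrophils as well as a hepatocyte product. Its average log2 CPM was 3.12, or 8.70 CPM (interval 8.31 to 9.10), with about 237 reads per library. It reached 3.32 CPM per kb of all exons and 9.50 CPM per kb of its principal transcript. *Lcn2* (ENSMUSG00000026822) lies on the minus strand at chr2:32384633-32388252, and none of its transcript windows of 50 bases or longer occurred in another gene. *Saa3* was 0.715 times *Lcn2* in CPM per kb of all exons but 1.17 times with the principal transcripts.

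Cell types in which *Lcn2* and *Saa3* are also made were read from their markers, and their part in these levels was not tested. Neutrophil markers had reads for 9 of 10 genes, 7 of them under 10 reads per library, and summed to 2.83 CPM, or 2.18 CPM with the prior count taken off. The most abundant in CPM was *Csf3r*, the receptor of granulocyte colony-stimulating factor, at 1.39 CPM. *Mpo* had no reads, which allows up to 0.0136 CPM, and *Camp* and *Ly6g* had about 1 read each over all libraries. Kupffer cell and macrophage markers had reads for 8 of 8 genes and summed to 196 CPM, led by *Clec4f*, a lectin of Kupffer cells, at 82.0 CPM. Adipocyte markers had reads for 5 of 5 genes, 4 of them under 10 reads per library, and summed to 2.38 CPM, or 2.02 CPM with the prior count taken off, led by *Cfd* at 1.70 CPM. A gene without reads carries 0.0728 CPM from the prior count alone, so levels near that value are close to 0.

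*Hp* encodes haptoglobin, which captures free hemoglobin in plasma. It had an average log2 CPM of 11.90, or 3819 CPM (interval 3811 to 3827), with about 104930 reads per library. By CPM it ranked 32 of 18937 genes. *Hp* reached 2378 CPM per kb of all exons and 2840 of its principal transcript, which was 2.40 times *Orm1* on the first length and 2.86 times on the second. Its nearest neighbours in CPM per kb were *Mup17*, a major urinary protein gene, at 2490 and *Hpx*, which encodes the heme scavenger hemopexin, at 2242. *Orm1* lay between *Cat*, which encodes catalase, at 1030 CPM per kb and *Wfdc21* at 977 CPM per kb. *Hp* (ENSMUSG00000031722) lies on the minus strand at chr8:109575128-109579172 and shared no 50-base window with another gene.

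The pentraxins are ring-shaped pattern recognition proteins of plasma. *Apcs* encodes serum amyloid P component, the pentraxin that responds most in mice, while *Crp* encodes C-reactive protein, which responds strongly in humans and weakly in mice. *Crp* had an average log2 CPM of 7.53, or 185 CPM (interval 183 to 187), with about 5079 reads per library. *Apcs* had an average log2 CPM of 5.44, or 43.4 CPM (interval 42.6 to 44.3), with about 1191 reads per library. *Crp* was 1.2 times *Apcs* in CPM per kb of all exons, 53.7 against 44.7. It was 2.18 times *Apcs* with the longest transcripts. With the principal transcripts it was 2.44 times *Apcs*, 109 against 44.7 CPM per kb, since the joined exons of *Crp* have 3444 bases and its principal transcript 1695. Both genes have 2 exons in the principal transcript.

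*Crp* (ENSMUSG00000037942) lies on the plus strand at chr1:172698055-172833031 and *Apcs* (ENSMUSG00000026542) on the minus strand at chr1:172893961-172895041, so they are transcribed towards each other. The annotated span of *Crp* contains the processed pseudogene *Gm38051*, which shares 0 exon bases with it. Their coding sequences were 58.9% identical, and none of their 100-base windows occurred in a transcript of another gene. At 50 bases 0.911% of the *Crp* windows and none of the *Apcs* windows did.

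The other genes of the acute-phase pathway gave a background of levels. The list of other positive acute-phase genes, which also holds the constitutive *Saa4*, had at least 1 CPM for 32 of 32 genes, with a median of 305 CPM per kb. The highest were *Serpina3k*, which encodes a serine protease inhibitor, at 6718 CPM per kb and *Hpx* at 2242, although with the principal transcripts *Serpina1b*, at 2501 CPM per kb, stood above *Hpx*. *Il1rn*, which encodes the interleukin 1 receptor antagonist, had 0.425 CPM per kb of all exons and 0.952 of its principal transcript. Each lay below the median of the genes that have that length. All 10 negative acute-phase genes had at least 1 CPM, with a median of 3647 CPM per kb. *Alb* was the highest of these and *Apoa1*, the main apolipoprotein of high-density lipoprotein, came next at 10760 CPM per kb. *Cyp7a1*, the rate-limiting enzyme of bile acid synthesis, was the lowest at 33.0 CPM per kb, and *Igf1* stood at 59.2, or at 351 CPM per kb of its principal transcript. *Alb*, *Apoa1*, *Ttr* and *Serpina1a* also belong to the hepatocyte markers. *Serpina3k*, *Serpina1a*, *Serpina1b* and *Mup17*, like the hemoglobin genes, come from families of close copies whose shared sequence was not examined, so their levels are uncertain.

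Most upstream ligands were near 0. Of 10 ligand genes 9 had reads, 7 of these under 10 reads per library, and the median was 0.0737 CPM per kb. Most of that median is the prior count, and with it taken off the median was 0.0208 CPM per kb. *Il1a*, at 1.05 CPM per kb, was the only ligand with at least 1 CPM, and *Il1b* followed at 0.521 CPM per kb. *Il6*, the main inducer of hepatic acute-phase genes, had about 4.04 reads over all libraries, and *Il22* had none. *Lif* and *Osm* had about 2.01 and 1.98 reads over all libraries.

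The receptor list holds receptors of cytokines and the glucocorticoid receptor gene *Nr3c1*. All 12 genes had at least 1 CPM, with a median of 6.08 CPM per kb. *Tnfrsf1a*, a receptor of tumour necrosis factor, was the highest at 33.7 CPM per kb, and *Lifr*, the leukemia inhibitory factor receptor, followed at 28.8. *Il6ra* and *Il6st*, the interleukin 6 receptor and its signalling chain gp130, had 6.59 and 5.0 CPM per kb of all exons, but 17.0 and 6.39 CPM per kb of their principal transcripts. *Osmr*, the oncostatin M receptor, was the lowest at 0.214 CPM per kb, and *Il10rb* came next at 1.29. With the principal transcripts they stayed the lowest 2, at 0.473 and 2.65 CPM per kb.

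Signalling and transcription factor genes had at least 1 CPM for 16 of 17 genes, with a median of 7.84 CPM per kb. *Cebpa* and *Hnf4a*, transcription factors of mature hepatocytes, led with 201 and 168 CPM per kb. *Stat3* stood at 7.84 CPM per kb, or at 16.5 with its principal transcript, *Cebpb* at 76.3 and *Cebpd* at 2.16. *Ppara*, the edited gene, stood at 86.5 CPM per kb over both genotypes. *Socs1*, an inhibitor of cytokine signalling, was the lowest at 0.0951 CPM per kb, with about 5.60 reads per library. *Nfkb1* came next at 1.36 CPM per kb of all exons, but with the principal transcripts *Cebpd* did, at 2.16 against 3.98 for *Nfkb1*. The related inhibitor *Socs3* had 2.77 CPM per kb.

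Genes for receptors and binding partners of the acute-phase proteins had at least 1 CPM for 11 of 16 genes, with a median of 1.01 CPM per kb. The highest were hemoglobin genes, *Hbb-bs* at 102 and *Hba-a1* at 22.5 CPM per kb, which are also red blood cell markers. With the principal transcripts *Scarb1*, at 63.1 CPM per kb, stood above *Hba-a1* at 26.1. *Cd163*, the macrophage receptor for haptoglobin bound to hemoglobin, had 2.39 CPM per kb. *Scarb1*, a high-density lipoprotein receptor that also binds serum amyloid A, had 18.7 CPM per kb of all exons. The lowest were *Lrp2*, an endocytic receptor for lipocalin 2, at 0.0408 CPM per kb and *Mmp9*, which forms a complex with lipocalin 2, at 0.124.

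The remaining cell type markers were present in differing amounts. Cholangiocyte markers had reads for 5 of 5 genes and summed to 35.6 CPM, led by *Spp1* at 24.0 CPM. Endothelial markers had reads for 5 of 5 genes and summed to 83.2 CPM, led by *Stab2* at 44.3 CPM. Stellate cell markers had reads for 5 of 5 genes and summed to 75.3 CPM, led by *Colec11* at 29.4 CPM. Red blood cell markers had reads for 4 of 4 genes analysed and summed to 231 CPM, led by *Alas2* at 131 CPM. *Hbb-bt*, also on that list, was not analysed here. T and B cell markers had reads for 7 of 7 genes and summed to 3.81 CPM, led by *Cd4* at 1.33 CPM. Of the 6 pancreas and intestine markers, *Cpa1* and *Prss2* had no reads, and 86.2 of the summed 89.7 CPM came from *Fabp2*, a fatty acid binding protein gene. The study lists *Fabp2* among the PPARɑ target genes that it examined in liver, so its level does not by itself point to intestine.

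**Figure D3:**
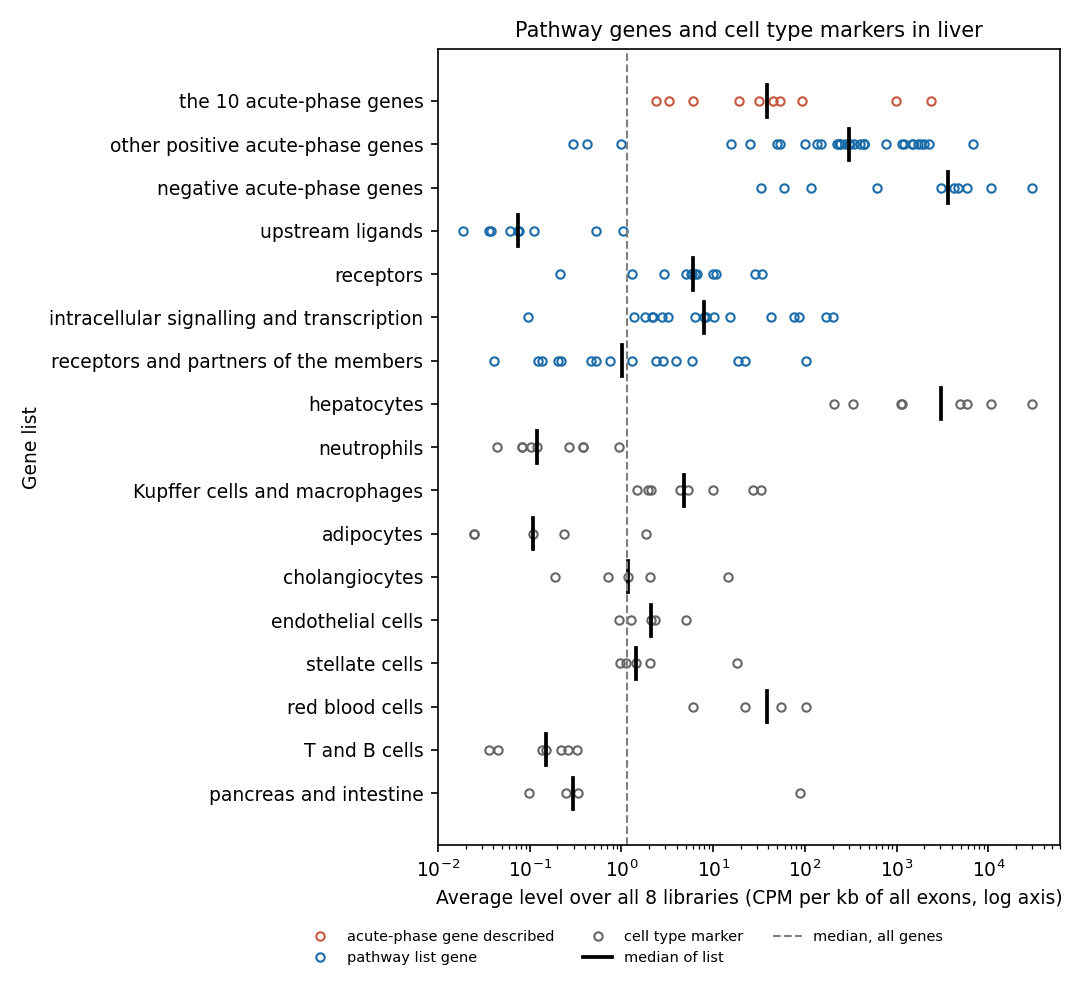
Average level over all 8 libraries of each gene with reads, in CPM per kb of all exons on a log axis, for the 10 acute-phase genes (red), the pathway lists (blue) and the cell type markers (grey), with black bars at list medians and a dashed line at the median of all genes. Upstream ligands (median 0.0737 CPM per kb, 0.0208 with the prior count taken off) and neutrophil markers (median 0.121, 0.0467 with it taken off) lie left of the dashed line, and the medians of negative acute-phase genes (3647) and hepatocyte markers (3025) lie farthest right; genes without reads are not drawn.

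Promoter windows of 300 bases, from 250 before to 50 after the start of the gene in RefSeq (GRCm38.p6), were found for 8 of the 10 genes; *Orm1* and *Hp* were not analysed here. Each window was searched on both strands for 6 motifs, of which TTNNGNAA and TTCNNNGAA can overlap. TTNNGNAA (C/EBP-like) matched in 7 of the 8 windows, beside 40.7% of all 32851 windows. TTCNNNGAA (STAT-like) matched in 1 of 8, *Apcs*, beside 8.30% of all windows, and TATAAA in 3 of 8, *Orm2*, *Orm3* and *Crp*, beside 13.6%. An NF-kB-like motif matched in 0 of 8, beside 1.63% of all windows. A DR1 motif of PPAR type and an HNF1-like motif also matched in 0 of 8, beside 0.0396% and 0.00913% of all windows. *Saa3* held 4 matches to TTNNGNAA, *Saa1* and *Orm2* 2 each, and *Apcs* none.

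The levels of *Saa1* and *Saa2* differ by 2.96 times in CPM per kb, a ratio that is uncertain because of shared sequence. Their promoter windows are printed because they are the most alike of the pairs compared, 95.3% identical. They lie at chr7:46742931-46743230 on the minus strand and chr7:46751583-46751882 on the plus strand, run 5′ to 3′ and include the start of the first exon. Capitals mark matches to TTNNGNAA or its reverse complement, TTNCNNAA. The first such match, from base 69 in *Saa1* and base 68 in *Saa2*, has the same letters in both, and *Saa1* has another from base 165.
Saa1 promoter: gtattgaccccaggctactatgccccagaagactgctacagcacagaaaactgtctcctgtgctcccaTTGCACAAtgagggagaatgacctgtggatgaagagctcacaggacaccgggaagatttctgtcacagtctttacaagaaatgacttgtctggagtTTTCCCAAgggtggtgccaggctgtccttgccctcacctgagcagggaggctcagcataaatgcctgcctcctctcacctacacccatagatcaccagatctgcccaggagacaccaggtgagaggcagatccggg
Saa2 promoter: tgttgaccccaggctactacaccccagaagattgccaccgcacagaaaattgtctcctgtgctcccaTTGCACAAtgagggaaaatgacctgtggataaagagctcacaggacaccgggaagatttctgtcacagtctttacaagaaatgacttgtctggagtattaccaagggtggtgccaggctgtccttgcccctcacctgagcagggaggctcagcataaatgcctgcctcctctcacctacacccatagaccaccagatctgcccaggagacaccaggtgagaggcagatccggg

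The levels of *Orm2* and *Orm3* differ by 3.17 times in CPM per kb, a ratio that is uncertain because of shared sequence. Their promoter windows were 86.2% identical and are printed for the same comparison. They lie on the plus strand at chr4:63362199-63362498 and chr4:63355908-63356207. Capitals mark TTNNGNAA matches on either strand, from base 131 in *Orm2* and base 130 in *Orm3* with another from base 143 in *Orm2*, and TATAAA from base 218 in *Orm2* and base 222 in *Orm3*. A match describes letters in a window and is not a measured binding site.
Orm2 promoter: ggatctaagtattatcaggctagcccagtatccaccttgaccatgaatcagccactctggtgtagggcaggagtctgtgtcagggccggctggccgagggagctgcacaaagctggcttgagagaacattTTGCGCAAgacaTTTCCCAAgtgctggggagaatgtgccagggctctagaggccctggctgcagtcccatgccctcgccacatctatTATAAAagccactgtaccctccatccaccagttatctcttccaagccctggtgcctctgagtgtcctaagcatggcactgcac
Orm3 promoter: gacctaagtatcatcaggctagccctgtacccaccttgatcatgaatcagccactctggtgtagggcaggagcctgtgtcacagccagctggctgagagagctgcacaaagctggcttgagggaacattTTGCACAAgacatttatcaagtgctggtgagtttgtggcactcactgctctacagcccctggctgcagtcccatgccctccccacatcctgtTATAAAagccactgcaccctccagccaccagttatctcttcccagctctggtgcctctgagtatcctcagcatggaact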

How the data were processed

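RNA of 8 livers was sequenced as stranded poly-A libraries, read in pairs on a NovaSeq X Plus. The submitters' processing notes and the study's methods name Trimmomatic, FastQC, STAR on GRCm38, featureCounts and edgeR; versions, annotation and strand setting are not given in the sources used here. The deposited table holds the authors' own edgeR comparison of the genotypes (fold change, F, p-value and FDR), which was not used, and the authors' average log2 CPM over all libraries, which was. It has 0 columns of values per library, so the planned test between genotypes was not run and no difference between genotypes is given.

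Genes at the lowest average, -3.78 on the log2 scale, were taken as without reads (8242 genes). With a prior count of 2, 99.9% of the 2378 genes with 1 to 5 implied reads came within 0.1 of a whole number. Implied reads of high genes are approximate. Lengths, coordinates and transcripts came from GENCODE vM21 and covered 94.8% of genes with reads. Windows were compared on the same strand. The CPM of shared windows is their share of the windows of a gene times its CPM. Coding sequences and promoters were aligned globally (match 2, mismatch -1, gap open -5, gap extend -0.5), and identity is over all alignment columns. The comparison of proteins that had been planned was not run. Python 3.11.15, pandas 2.3.3, numpy 2.4.6, scipy 1.17.1, Biopython 1.88 and matplotlib 3.10.9 were used. The recovery of reads and the window search were run on simulated data. The simulated averages came from the same formula that recovers the reads, so that run could not test the formula itself.

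The members and lists were chosen with earlier results of these data known. The genes named are the 10 acute-phase genes, genes of the lists, among them the highest and lowest 2 of each pathway list in CPM per kb except 1 gene that is not reported here, the marker of each cell type most abundant in CPM, and the nearest neighbours of a member in CPM per kb. The alternatives tried were other transcript lengths, ranks, window lengths and prior counts.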

Additional observations from a re-analysis of the deposited data

How the results depend on the processing

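Levels per kb depended on the length used. With the longest transcript the ratio in CPM per kb of *Crp* to *Apcs* was 2.18 and that of *Hp* to *Orm1* 2.86. With the principal transcript, a length chosen after seeing the data, the ratios were 2.44 and 2.86, and that of *Saa1* to *Saa2* was 3.11. The ratio of *Orm1* to *Orm2* was 51.9 with every length and 52.1 with the prior count taken off. The principal transcript raised 5 of the 10 levels per kb by over 1.5 times, most for *Saa3* (4.70 times), and the longest transcript raised 2, most for *Lcn2* (1.91 times). Taking off the prior count left the order of all 10 genes as it was. For lists, a step chosen after seeing the data, it lowered the median of the upstream ligands from 0.0737 to 0.0208 CPM per kb, of the neutrophil markers from 0.121 to 0.0467 and of the adipocyte markers from 0.108 to 0.0614. With a prior count of 1, genes with 1 read in total came to a median of 0.50 reads, so a prior count of 2 was kept; implied reads of the 10 genes would be lower by a factor of 2. Ranking among the 11711 genes with an average log2 CPM of at least 0 could not move a rank, since all 10 genes lie above that level. Among protein-coding genes by CPM per kb, *Hp* ranked 25 and *Saa3* 6617, against 32 and 8409 by CPM among all genes with reads.

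No paired analysis was possible because the table holds no values per library. The replicate block, leaving out each replicate, DESeq2 and the filter on low counts were not run for the same reason. Pooled averages limit all of the above to levels over both genotypes, and no error between mice can be given.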
